A study of Mus musculus with 13 samples.

Results

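Metalloproteases and their tissue inhibitors were followed in mouse aorta across 13 expression arrays. Members were genes of the deposited table whose symbol begins with Mmp, Timp, Adamts, Adamtsl or Adam and a number, which gave 82 genes of 21225: 23 Mmp, 4 Timp, 18 Adamts, 5 Adamtsl and 32 Adam genes. The arrays measured total RNA of aorta from male C57BL/6 mice, 1 log2 expression value per gene and array. Young mice were 3 to 4 months old by the design text (3 months in the extraction protocol) and aged mice were 12 months old. MR-intact mice, labelled wildtype, have the mineralocorticoid receptor, a nuclear receptor that binds aldosterone and is encoded by Nr3c2. MR-knockout mice lack it in smooth muscle cells, as the design text gives the model, with Cre line and promoter not given in the sources used here. There were 3 arrays of young MR-intact, 3 of young knockout, 4 of aged MR-intact and 3 of aged knockout aorta. Labels do not say whether arrays came from separate animals, so that the p-values measure the spread between arrays, and the number of arrays limits their precision. Per the design text the study looked for changes of vascular RNA with aging.

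Matrix metalloproteases (Mmp genes) are zinc enzymes that are made as inactive precursors and cut collagens, elastin, proteoglycans and each other. Tissue inhibitors of metalloproteases (Timp genes) block their active site, and TIMP3 also blocks several ADAM and ADAMTS enzymes. ADAMTS enzymes are secreted and cut proteoglycans such as versican and aggrecan or process procollagens, while the ADAMTS-like proteins share their accessory domains, lack the protease domain and bind fibrillin microfibrils in several cases. ADAM proteins are mostly membrane-bound, and those with an active site shed growth factors, cytokines and receptors from the cell surface; many others are known from testis and sperm. In the arterial wall these families take part in the turnover of elastic fibres and collagen.

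The aorta label was checked against markers. All 8 smooth muscle markers lay above the array median on every array, and their mean level was 10.47 to 10.87 on every array other than aged knockout array 2, where it was 9.93. All 8 adipocyte markers also lay above it on every array, at mean levels of 10.87 to 11.31. RNA of fat cells was thus measured with that of the vessel wall, and its part in the members' values was not tested. None of the 8 germ cell markers lay above the median on every array, and their mean was 3.82 to 3.98. Nr3c2 lay between 6.09 and 6.58 on the 6 knockout arrays and between 6.62 and 7.24 on the 7 MR-intact arrays, without overlap. The difference was -0.55 log2 (exact permutation test over the 700 regroupings within age, two-sided p = 0.00143; adjusted p = 0.175 over all genes by limma). Whole aorta was measured, so fewer smooth muscle cells with the receptor and less RNA per cell cannot be told apart, and the same holds for every gene below. On the first principal component the 3 aged knockout arrays were separate from all others over all genes (34.7% of the variance; scores of 14.4 to 44.5 against -16.1 to 1.5 elsewhere). B lymphocyte and plasma cell markers had a mean level of 7.52 to 9.48 on these arrays, against 5.69 to 6.16 in aged MR-intact aorta, T lymphocyte markers 5.87 to 7.35 against 5.33 to 5.85, and fibroblast markers 8.91 to 9.15 against 9.30 to 9.43. On the young knockout arrays these means were 5.43 to 6.95, 5.08 to 6.01 and 9.42 to 9.60. The T lymphocyte means therefore overlapped between ages in knockout aorta. On aged knockout array 2 liver markers reached 7.36 and Schwann and neuronal markers 6.70, against at most 6.15 and 6.08 elsewhere. Mesothelium markers were at 5.12 on that array and at 5.77 to 6.97 elsewhere. This array was the highest or the lowest of the 13 in 37.8% of members (37.1% of all genes). The median SD of members was 0.157 among aged knockout arrays, against 0.093 to 0.105 in each remaining group. The part of these features in the results below was not tested.

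Of the 82 members, 33 lay above the array median on every array: all 4 Timp genes, 10 Mmp, 8 Adamts, 3 Adamtsl and 8 Adam genes. Another 21 lay below the lower quartile of every array, 17 of them Adam genes and the others Mmp1a, Mmp1b, Mmp8 and Mmp21. Adam6a and Adam6b, which lie within the immunoglobulin heavy chain locus on chromosome 12, measured 2.26 to 2.81 on all arrays. Mmp1a with Mmp1b, Adam1a with Adam1b, Adam6a with Adam6b and Adam26a with Adam26b are pairs of paralogs by name, and whether the probes separate them was not tested. In 16 members (19.5%; 22.3% of all genes) 3 or more arrays carried the same value, up to 10 of 13 arrays for Adamts3, and differences in these genes have little resolution. Levels are not compared between genes, because probes differ in brightness.

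Promoter windows are shown for 3 of the 7 members called below, which hold different combinations of core elements. The window of Mmp13, which was not called, is shown beside them and holds the same elements as that of Mmp3. RefSeq (assembly GRCm38.p6) gave a window from 250 bases before to 50 bases after the start for 51 of the 82 members. In the windows, printed 5′ to 3′ on the gene's strand, capitals mark the AP-1 element (TGAGTCA or TGACTCA, bound by Fos and Jun proteins), the TATA box (TATAAA) and the GC box (GGGCGG or CCGCCC, bound by Sp1). Mmp3 lies at chr9:7445572-7445871 on the plus strand, Mmp13, from the same gene cluster, at chr9:7272264-7272563 on the plus strand, Adamtsl2 at chr2:27079129-27079428 on the plus strand and Adamtsl4 at chr3:95687868-95688167 on the minus strand.
Mmp3: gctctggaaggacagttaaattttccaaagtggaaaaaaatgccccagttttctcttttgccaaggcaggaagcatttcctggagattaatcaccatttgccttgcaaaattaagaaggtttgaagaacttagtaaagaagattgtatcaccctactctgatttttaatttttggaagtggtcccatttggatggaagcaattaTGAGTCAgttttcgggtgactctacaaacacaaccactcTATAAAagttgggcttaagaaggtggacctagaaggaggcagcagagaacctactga
Mmp13: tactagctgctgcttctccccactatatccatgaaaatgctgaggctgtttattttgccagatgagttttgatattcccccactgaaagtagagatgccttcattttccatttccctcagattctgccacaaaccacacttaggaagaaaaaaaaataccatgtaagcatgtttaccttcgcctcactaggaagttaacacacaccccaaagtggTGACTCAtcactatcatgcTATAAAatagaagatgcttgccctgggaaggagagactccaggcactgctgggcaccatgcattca
Adamtsl2: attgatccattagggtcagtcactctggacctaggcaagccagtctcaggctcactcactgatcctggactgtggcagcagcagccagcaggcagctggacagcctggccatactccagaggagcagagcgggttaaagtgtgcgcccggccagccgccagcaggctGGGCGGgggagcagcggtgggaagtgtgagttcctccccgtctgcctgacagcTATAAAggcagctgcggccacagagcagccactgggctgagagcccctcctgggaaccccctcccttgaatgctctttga
Adamtsl4: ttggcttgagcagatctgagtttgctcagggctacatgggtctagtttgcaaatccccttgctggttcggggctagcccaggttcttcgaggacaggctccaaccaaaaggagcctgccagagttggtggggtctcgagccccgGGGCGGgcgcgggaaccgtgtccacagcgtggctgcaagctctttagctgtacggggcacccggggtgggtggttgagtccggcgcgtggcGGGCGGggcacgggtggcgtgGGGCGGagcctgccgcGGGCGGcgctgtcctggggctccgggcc
The Mmp3 window held an AP-1 element 46 bases and a TATA box 7 bases before the annotated start, and the Mmp13 window held them 35 and 16 bases before it. Adamtsl2 had a TATA box 30 bases and a GC box 83 bases before the start, and Adamtsl4 had GC boxes 106 and 15 bases before it and 2 more after it.

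Searched on both strands, the AP-1 element occurred in 10 of the 51 member genes, or 17.9% of their 56 windows, against 5.2% of all 32851 windows. The TATA box (TATAAA or TTTATA) occurred in 15 genes, 26.8% of member windows against 13.6%. Both together occurred in 8 genes, 14.3% of member windows against 0.941%: Adam29, Mmp1a, Mmp1b, Mmp3, Mmp7, Mmp10, Mmp12 and Mmp13. All but Adam29 are among the 10 Mmp genes of chromosome 9, which arose by duplication and are not independent. The GC box was in 26 member genes (46.4% of windows against 35.7%), among them Timp1, Timp2 and Timp3. The palindromic steroid response element (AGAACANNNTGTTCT), which glucocorticoid and mineralocorticoid receptors can bind, was in 0 member windows and in 3 of all windows (0.00913%). A single arm of it, AGAACA or TGTTCT, which the full element contains, was in 8 member genes (17.9% of windows against 19%). A match is a run of letters and was not tested as a binding site.

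Aging in MR-intact aorta moved 2 members past the threshold: Mmp3 rose and Adamtsl2 fell. That is 2.44% of members, against 0.236% of all genes called in this comparison, 0.179% higher and 0.0565% lower (limma, adjusted p under 0.05 over all genes). Aging in knockout aorta moved 6 members, 7.32% against 0.735% of all genes (0.316% higher, 0.419% lower): Mmp3 rose, and Mmp2, Mmp16, Mmp23, Adamts8 and Adamtsl4 fell. In both genotypes more members lay below than above 0, 51 against 31 in MR-intact and 58 against 24 in knockout aorta. The median member difference was -0.03 log2 in MR-intact and -0.07 in knockout aorta, beside 0.01 and 0.00 for all genes. Arrays did not overlap between ages for 4 members higher and 11 lower in MR-intact aorta (18.3%; 10.9% of all genes, 6.05% higher and 4.8% lower), and for 5 higher and 19 lower in knockout aorta (29.3%; 16.4% of all genes, 8% higher and 8.38% lower). Endothelial markers also moved with age: their differences had a median of -0.28 in MR-intact (8 of 8 below 0, 5 without overlap) and -0.23 in knockout aorta (7 of 8 below 0, 3 without overlap), with none of 8 called in either. Skeletal muscle markers had a median of -1.77 in MR-intact aorta and -1.01 in knockout aorta, and cardiac muscle markers -1.91 and -1.10, also with none called. In MR-intact aorta 1 of 8 skeletal and 0 of 8 cardiac markers did not overlap between ages, and in knockout aorta 2 and 1. Mean levels of the skeletal markers were 5.17 to 8.14 on young and 4.87 to 5.84 on aged MR-intact arrays. Those of the cardiac markers were 6.28 to 8.99 and 5.93 to 6.56. The part of these markers in the members' age differences was not tested. Both aging comparisons use different arrays. Across the 82 members their differences correlated with r = 0.596 (0.359 across all genes) and had the same sign in 51 members (62.2%; 55.9% of all genes), a description across genes, which are not independent.

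**Figure D1:**
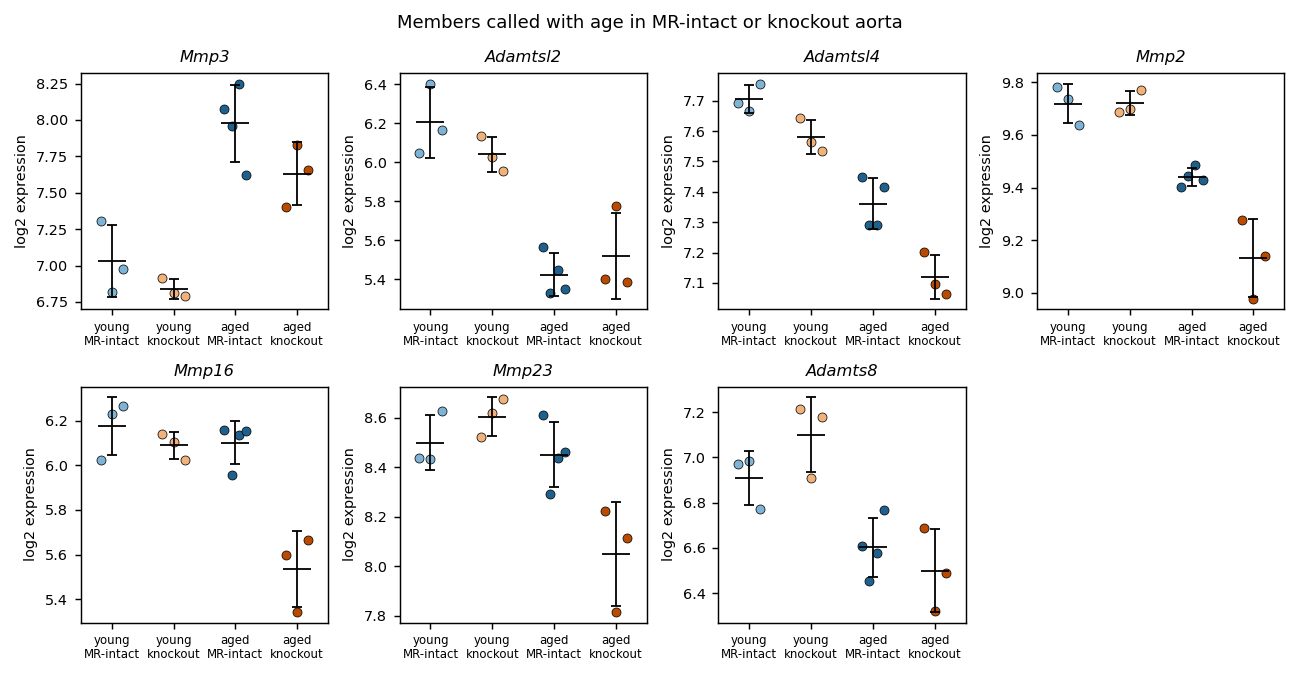
Log2 expression of the 7 members called with age in at least 1 genotype, by group. Points are arrays, bars the group mean ± SD (n = 3, 3, 4 and 3), and each panel has its own axis; Mmp3 is higher and the other 6 genes are lower on aged knockout than on young knockout arrays.

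Mmp3, stromelysin 1, cuts proteoglycans and fibronectin and activates the precursors of other Mmp enzymes. In MR-intact aorta it measured 7.30, 6.82 and 6.98 on the young and 8.08, 7.96, 8.25 and 7.62 on the aged arrays. In knockout aorta it measured 6.92, 6.81 and 6.79 on the young and 7.40, 7.83 and 7.66 on the aged arrays. Every aged array was above every young array, in both genotypes. The rise was 0.94 ± 0.15 log2 (SE), 1.92-fold, in MR-intact (limma, adjusted p = 0.0245) and 0.79 ± 0.16, 1.73-fold, in knockout aorta (adjusted p = 0.0489), and the difference between both rises did not pass (-0.15 ± 0.22, limma adjusted p = 0.886). The MR-intact call held in 9 of 13 fits with 1 array left out and was lost without aged MR-intact array 1 or 3 or young MR-intact array 2 or 3 (adjusted p up to 0.169). The knockout call held in 3 of 13, those without aged MR-intact array 4 or aged knockout array 1 or 3 (adjusted p up to 0.183 in the others), while the rise itself stayed between 0.69 and 0.90. Macrophages are a known source of several Mmp enzymes: macrophage markers had a mean of 7.92 to 8.17 on the 7 aged and 7.71 to 7.95 on the 6 young arrays, 9 of the 10 above the array median on every array, and neutrophil markers were at 3.82 to 4.37, none of 9 above it throughout. Their part in the Mmp3 values was not tested.

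Mmp2, gelatinase A, cuts denatured and basement membrane collagen and is activated at the cell surface by Mmp14 with Timp2. Its level was 9.78, 9.74 and 9.64 on the young and 9.40, 9.45, 9.49 and 9.43 on the aged MR-intact arrays. On the knockout arrays it was 9.69, 9.70 and 9.77 in young and 9.28, 8.98 and 9.14 in aged aorta. The aged arrays were below the young arrays in both genotypes, and the aged knockout arrays were below the aged MR-intact arrays. Mmp2 fell by 0.59 ± 0.08 log2 with age in knockout aorta (limma, adjusted p = 0.00911). Its difference in MR-intact aorta, -0.28 ± 0.07, did not pass (limma adjusted p = 0.223). The knockout call held in 12 of 13 fits with 1 array left out (adjusted p = 0.0529 without young knockout array 2), and with aged knockout arrays 1 and 2 left out, an alternative chosen after seeing the data, the difference was -0.58. That fit has 1 aged knockout array, assumed to vary like the other groups, so its adjusted p of 0.0349 is no replicate check.

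Mmp16 and Mmp23 differed with age in knockout aorta. Mmp16 is a membrane-type protease that can activate Mmp2. It measured 6.03, 6.23 and 6.27 on young MR-intact, 6.14, 6.10 and 6.02 on young knockout, 6.16, 5.96, 6.14 and 6.16 on aged MR-intact, and 5.60, 5.34 and 5.67 on aged knockout arrays. The aged knockout arrays lay below all other arrays, which overlapped with each other. The aging fall in knockout aorta was -0.55 ± 0.10 log2 (limma, adjusted p = 0.0293; called in 9 of 13 fits with 1 array left out, lost without aged MR-intact array 3, young MR-intact array 2 or young knockout array 1 or 2, adjusted p up to 0.136). Mmp23 encodes a membrane-anchored protease without the hemopexin domain of most Mmp enzymes. It measured 8.44, 8.43 and 8.63 on young MR-intact, 8.52, 8.62 and 8.67 on young knockout, 8.61, 8.29, 8.44 and 8.46 on aged MR-intact, and 8.22, 7.82 and 8.11 on aged knockout arrays. Again the aged knockout arrays lay below all others. Its fall of -0.55 ± 0.11 in knockout aorta (limma, adjusted p = 0.046) held in 3 of 13 such fits, those without aged MR-intact array 2 or aged knockout array 1 or 3, with adjusted p up to 0.165 in the others. Fibroblast markers had a median age difference of -0.47 on the same arrays, and 3 of the 8 were called lower, none higher. Smooth muscle markers had a median of -0.26, 8 of 8 below 0 with none called and 2 without overlap. The part of both marker sets in the Mmp2, Mmp16 and Mmp23 values was not tested.

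The remaining Mmp genes did not pass in either genotype. Mmp12, macrophage elastase, measured 4.80, 5.32 and 5.03 on young and 5.63, 5.55, 6.81 and 5.34 on aged MR-intact arrays, and 5.24, 5.30 and 4.75 on young and 5.38, 6.37 and 5.38 on aged knockout arrays. Aged and young arrays did not overlap in either genotype, but 1 aged array in each stood well above the others. The differences were 0.78 ± 0.33 (limma, adjusted p = 0.524) and 0.62 ± 0.35 (adjusted p = 0.448), and they were 0.46 without aged MR-intact array 3 and 0.29 without aged knockout array 2. Mmp13, collagenase 3, measured 4.78, 4.67 and 4.50 on young and 5.02, 4.86, 4.84 and 4.96 on aged MR-intact arrays, again without overlap (0.27 ± 0.13, limma adjusted p = 0.602). In knockout aorta the values were 4.72, 4.53 and 4.48 in young and 4.88, 5.39 and 4.79 in aged aorta (0.45 ± 0.14, limma adjusted p = 0.146; 0.26 without aged knockout array 2). Other Mmp genes whose windows hold both the AP-1 element and the TATA box had no such difference. Mmp7, matrilysin, had -0.04 ± 0.07 in MR-intact and 0.03 ± 0.08 in knockout aorta, and Mmp10, stromelysin 2, had -0.03 ± 0.12 and -0.11 ± 0.13, both given here because of their windows. Mmp1a and Mmp1b were below the lower quartile of every array. Over all arrays Mmp7 measured 4.07 to 4.34 and Mmp10 3.57 to 4.18, near the arrays' lower quartiles of 3.89 to 4.14. A difference could therefore be missed in these genes.

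Mmp14, the membrane-type enzyme that activates Mmp2, was at 7.94 ± 0.17 (SD, n = 3) on young and 7.72 ± 0.09 (n = 4) on aged MR-intact arrays, and at 7.88 ± 0.04 and 7.74 ± 0.16 (n = 3 each) on young and aged knockout arrays. These groups did not differ past the threshold (-0.21 ± 0.09, limma adjusted p = 0.546, and -0.14 ± 0.10, adjusted p = 0.543). Mmp15, another membrane-type enzyme, had -0.43 ± 0.12 in MR-intact aorta (limma, adjusted p = 0.262) and -0.29 ± 0.13 in knockout aorta (adjusted p = 0.289). Mmp9, gelatinase B, which neutrophils and macrophages secrete, had group means of 6.81 to 6.86 and differences of -0.01 ± 0.15 and -0.04 ± 0.16. Mmp17, a membrane-type enzyme with a lipid anchor, measured 7.47, 6.75 and 7.61 on aged knockout against 7.76, 7.98 and 7.80 on young knockout arrays. The difference of -0.57 ± 0.18 did not pass (limma, adjusted p = 0.153) and was -0.31 without aged knockout array 2, while without aged knockout array 3 it passed (-0.74, adjusted p = 0.0453).

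**Figure D2:**
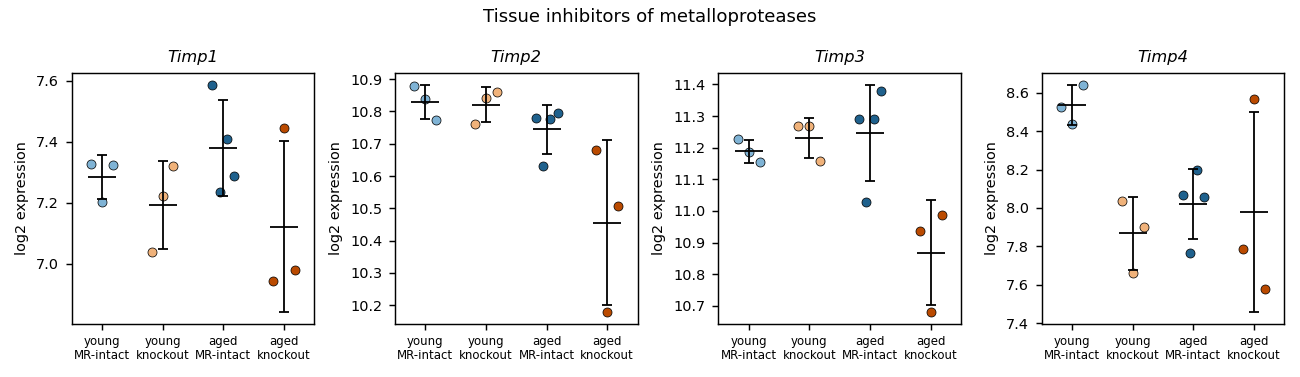
Log2 expression of the 4 tissue inhibitors by group. Points are arrays, bars the group mean ± SD (n = 3, 3, 4 and 3), and each panel has its own axis; Timp3 is lower on the aged knockout arrays than on all others, and aged knockout array 2 lies at 8.57 for Timp4.

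No tissue inhibitor changed past the threshold in any comparison, and at most 0.735% of all genes did in any of them. Timp3, the matrix-bound inhibitor, measured 11.23, 11.19 and 11.15 on young MR-intact, 11.27, 11.27 and 11.16 on young knockout, 11.29, 11.03, 11.29 and 11.38 on aged MR-intact, and 10.94, 10.68 and 10.99 on aged knockout arrays. Its aged knockout arrays were below all other arrays. The differences with age were 0.06 ± 0.09 in MR-intact (limma, adjusted p = 0.945) and -0.36 ± 0.10 in knockout aorta (adjusted p = 0.114). Timp2, which with Mmp14 also activates Mmp2, measured 10.76, 10.84 and 10.86 on young knockout and 10.68, 10.18 and 10.51 on aged knockout arrays, without overlap. Its difference of -0.37 ± 0.11 did not pass (limma, adjusted p = 0.125), was -0.23 without aged knockout array 2, and passed without aged knockout array 1 (-0.48, adjusted p = 0.0415). In MR-intact aorta Timp2 was at 10.83 ± 0.05 (SD, n = 3) in young and 10.75 ± 0.08 (n = 4) in aged aorta.

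Timp1, the inhibitor known to rise in many injured tissues, had group means of 7.28 ± 0.07 and 7.19 ± 0.14 (SD, n = 3 each) in young MR-intact and young knockout, 7.38 ± 0.16 (n = 4) in aged MR-intact and 7.12 ± 0.28 (n = 3) in aged knockout aorta. The groups overlapped. Timp4, known for its high expression in heart and vessels, measured 8.52, 8.44 and 8.64 on young MR-intact and 8.04, 7.66 and 7.90 on young knockout arrays. It was at 8.07, 7.76, 8.20 and 8.06 on aged MR-intact and 7.79, 8.57 and 7.58 on aged knockout arrays. Young MR-intact arrays lay above the young knockout and the aged MR-intact arrays without overlap. The differences were -0.51 ± 0.19 with age in MR-intact aorta (limma, adjusted p = 0.449) and 0.11 ± 0.21 in knockout aorta (adjusted p = 0.863), the latter -0.18 without aged knockout array 2. On young MR-intact arrays 1, 2 and 3, in this order, skeletal muscle markers were at 8.14, 7.39 and 5.17. Cardiac muscle markers were at 8.99, 8.71 and 6.28, and Timp4 was highest on array 3. The part of these markers in the Timp4 values was not tested.

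Of the 18 Adamts genes none passed with age in MR-intact aorta (0.236% of all genes did). In knockout aorta 1, Adamts8, fell (0.735% of all genes were called, 0.419% lower). The age difference was below 0 in 15 (median -0.16) and 17 (median -0.17) of the 18, in this order. Over all 21225 genes it was below 0 in 10132 and 10353. When each array was centred on its median the Adamts counts were 16 and 18, and after a second quantile normalization 15 and 17. Adamts8, which can cut aggrecan and inhibits blood vessel growth, measured 7.21, 6.91 and 7.18 on young and 6.69, 6.32 and 6.49 on aged knockout arrays, and 6.97, 6.98 and 6.77 on young and 6.61, 6.45, 6.58 and 6.77 on aged MR-intact arrays. The aged arrays were below the young ones in both genotypes, with 6.77 on both sides at the closest pair in MR-intact aorta. It fell by 0.60 ± 0.12 log2 in knockout aorta (1.52-fold, limma adjusted p = 0.0445). That call held in 4 of 13 fits with 1 array left out, those without aged MR-intact array 2 or 4 or aged knockout array 1 or 3, with adjusted p up to 0.177 in the others. The MR-intact difference of -0.31 ± 0.11 did not pass (limma, adjusted p = 0.418).

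Adamts15, a versican- and aggrecan-cutting enzyme, had the lowest value of the 82 aging differences in MR-intact aorta. It measured 7.24, 7.33 and 6.72 on young and 6.56, 6.02, 6.15 and 6.13 on aged MR-intact arrays, without overlap. The difference of -0.88 ± 0.19 log2 did not pass (limma, adjusted p = 0.111), but did with array weights (-0.92, adjusted p = 0.013) and without young MR-intact array 3 (-1.07, adjusted p = 0.0351). On knockout arrays it was 7.11, 6.78 and 6.62 in young and 6.57, 6.62 and 6.04 in aged aorta (-0.43 ± 0.20, limma adjusted p = 0.335), with the groups touching at 6.62. Adamts12, which cuts cartilage oligomeric matrix protein, had -0.44 ± 0.10 in MR-intact (limma, adjusted p = 0.139) and -0.37 ± 0.11 in knockout aorta (adjusted p = 0.125), with no overlap in either. Adamts9, a versican-cutting enzyme, had -0.31 ± 0.10 and -0.34 ± 0.11 (limma, adjusted p = 0.355 and 0.15).

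Of the 3 enzymes best known for cutting aggrecan and versican, Adamts1 had -0.01 ± 0.13 in MR-intact and -0.31 ± 0.14 in knockout aorta. Adamts4 had -0.17 ± 0.12 and -0.33 ± 0.13, and Adamts5 had 0.09 ± 0.10 and -0.24 ± 0.10, all short of the threshold. Adamts5 measured 8.79, 8.47 and 8.58 on young MR-intact, 8.42, 8.46 and 8.43 on young knockout, 8.72, 8.61, 8.71 and 8.75 on aged MR-intact, and 8.33, 7.96 and 8.30 on aged knockout arrays. The knockout arrays were below the MR-intact arrays at both ages. Adamts10, linked in humans to a fibrillin disorder, had group means of 8.52 to 8.73 and differences of -0.18 ± 0.13 and -0.15 ± 0.14.

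Among the Adamtsl genes, 4 of 5 did not overlap between ages in either genotype, 3 lower and 1 higher in each. The share of all genes without overlap was 10.9% in MR-intact aorta (6.05% higher, 4.8% lower). In knockout aorta it was 16.4% (8% higher, 8.38% lower). Adamtsl2 encodes a secreted protein that binds fibrillin and latent TGF-beta binding protein, and is mutated in a human short-stature disorder, geleophysic dysplasia. It measured 6.05, 6.40 and 6.17 on young and 5.57, 5.33, 5.45 and 5.35 on aged MR-intact arrays, and 6.14, 6.03 and 5.96 on young and 5.40, 5.77 and 5.39 on aged knockout arrays. All aged arrays were below all young arrays. It fell by 0.78 ± 0.11 log2 in MR-intact aorta (1.72-fold, limma adjusted p = 0.0107), a call that held in 12 of 13 fits with 1 array left out (adjusted p = 0.0755 without young MR-intact array 2). The knockout difference was -0.52 ± 0.12 and did not pass (limma, adjusted p = 0.0678; -0.65 and 0.0215 without aged knockout array 2), and the difference between genotypes was 0.26 ± 0.16 (limma, adjusted p = 0.673).

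Adamtsl4 binds fibrillin-1 and is mutated in human lens dislocation. It measured 7.69, 7.67 and 7.75 on young MR-intact, 7.64, 7.56 and 7.53 on young knockout, 7.45, 7.29, 7.29 and 7.42 on aged MR-intact, and 7.20, 7.10 and 7.06 on aged knockout arrays. The 4 groups did not overlap at any pair. It fell by 0.46 ± 0.07 log2 with age in knockout aorta (1.37-fold, limma adjusted p = 0.0169; called in 11 of 13 fits, lost without young knockout array 1 or 2, adjusted p up to 0.0794). In MR-intact aorta the difference was -0.34 ± 0.07 (limma, adjusted p = 0.0678). Adamtsl1, also called punctin, had -0.29 ± 0.10 and -0.43 ± 0.10 (limma, adjusted p = 0.385 and 0.083; the latter 0.0459 without aged knockout array 2). Adamtsl3, its relative, was higher on every aged array than on the young arrays of its genotype, 0.25 ± 0.07 and 0.19 ± 0.07 (limma, adjusted p = 0.222 and 0.219), and Adamtsl5 had 0.13 ± 0.09 and -0.07 ± 0.10.

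**Figure D3:**
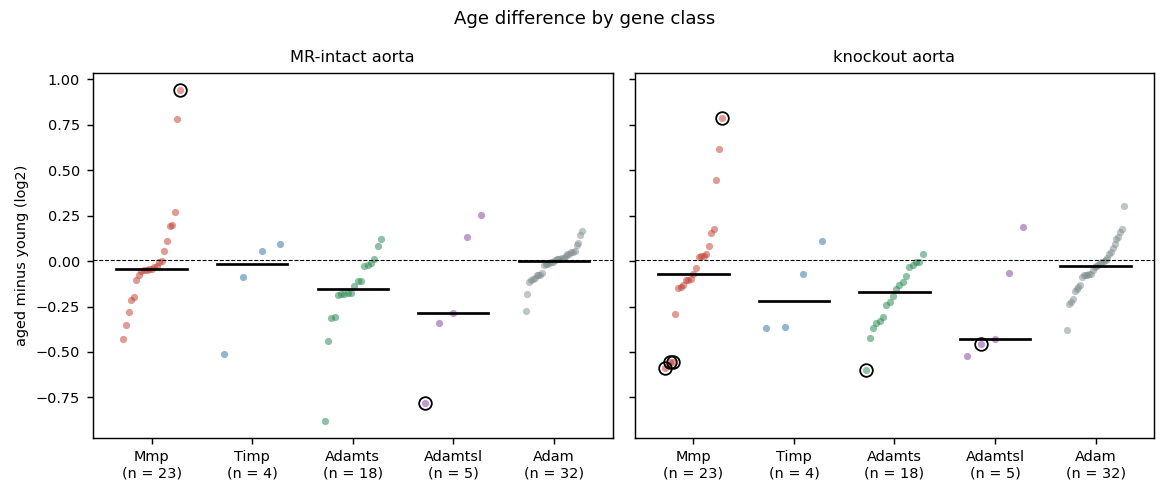
Age difference in log2 of all 82 members by gene class, in MR-intact (left) and knockout aorta (right). Each point is a gene, bars are class medians, circled points passed limma's adjusted threshold, and the dashed line is the median of all 21225 genes; the Adam class centres near 0 and the Adamts and Adamtsl classes below it in both panels.

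With age, the median absolute difference of the Adam genes was 0.051 in MR-intact and 0.078 in knockout aorta, against 0.105 and 0.145 for the Mmp and 0.155 and 0.172 for the Adamts genes. Over all genes it was 0.0775 and 0.102. As given above, 17 of the 32 Adam genes lay below the lower quartile of every array, where differences could be missed. None of the 32 was called in any comparison. With age 0.236% of all genes were called in MR-intact and 0.735% in knockout aorta, shares from which 0 of 32 cannot be told apart. The median of the Adam genes was -0.00 in MR-intact and -0.03 in knockout aorta, 16 and 21 of them below 0 (22 and 24 with arrays centred on their medians). Adam10, the main alpha-secretase and Notch-releasing enzyme, had group means of 8.12 to 8.23. Adam17, which releases tumour necrosis factor and EGF receptor ligands, had 7.91 to 8.02, and Adam15, a disintegrin of endothelium and smooth muscle, 9.22 to 9.29. In these 3 genes the age differences ranged from -0.10 to -0.01 log2 over both genotypes, with SEs of 0.06 to 0.09. Adam9, a widely expressed sheddase, had 0.09 ± 0.08 in MR-intact and -0.14 ± 0.08 in knockout aorta.

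Several members had an extreme value on aged knockout array 2. Adam12, a muscle-associated enzyme described here because of its values, measured 7.94 on that array and 6.37 to 7.36 on the other 12. Across members this array was the highest of the 13 in 14 genes and the lowest in 17. Its liver, nerve and mesothelium marker levels are given above, and their part in these values was not tested.

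**Figure D4:**
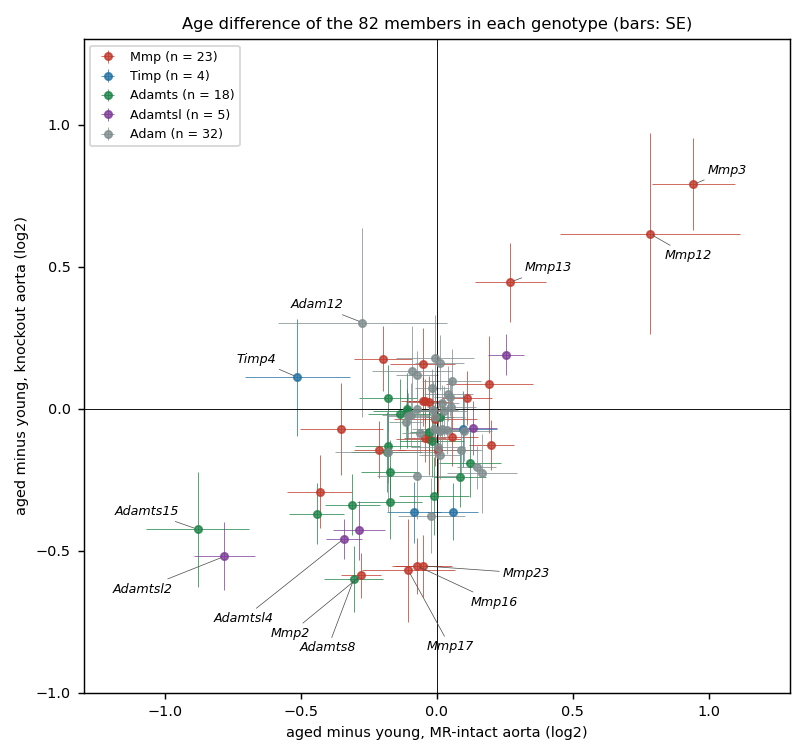
Age difference in log2 of each of the 82 members in MR-intact (horizontal axis) and knockout aorta (vertical axis), with SEs as bars and colours for gene class. Mmp3 lies at 0.94 and 0.79, Adamtsl2 at -0.78 and -0.52, and Mmp16, Mmp17 and Mmp23 near 0 on the horizontal axis and at -0.55 to -0.57 on the vertical axis.

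Deletion of the receptor in young aorta gave no member past the threshold by limma, 0 of 82 against 0% of all genes. At an unadjusted p under 0.05 there was 1 member, Timp4 (-0.67 ± 0.21, limma adjusted p = 1), and 2.59% of all genes. Arrays of the genotypes did not overlap in 7 members (8.54%; 9.48% of all genes), 2 higher and 5 lower in knockout (5.43% and 4.06% of all genes). The next smallest p values belonged to Adamts13, which cuts von Willebrand factor (0.21 ± 0.13), Adamts8 (0.19 ± 0.12), Adam6a (0.18 ± 0.11), the membrane-type enzyme Mmp24 (0.15 ± 0.10), Adam21 (0.14 ± 0.08), Mmp8, neutrophil collagenase (-0.17 ± 0.11), Adamts5 (-0.17 ± 0.10), Adam26a (-0.13 ± 0.07) and Adamtsl4 (-0.12 ± 0.07). Each of these 9 had a limma adjusted p of 1. The median member difference was 0.02 and turned to -0.00 when each array was centred on its median.

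In aged aorta too, no member passed (0 of 82; 0.0565% of all genes, 0.0377% higher and 0.0188% lower), while 18 members had an unadjusted p under 0.05 (17.6% of all genes did). The genotypes did not overlap in 11 members (13.4%; 10.4% of all genes), 2 higher and 9 lower in knockout (5.25% and 5.11% of all genes). The members nearest the threshold were Mmp16 (-0.57 ± 0.09, limma adjusted p = 0.0518), Adamts5 (-0.50 ± 0.10, adjusted p = 0.0605) and Mmp2 (-0.31 ± 0.07, adjusted p = 0.0791). Next were Timp3 (-0.38 ± 0.09, limma adjusted p = 0.083), Adam22, a receptor-like protein without protease activity (-0.28 ± 0.07, adjusted p = 0.0865), and Mmp23 (-0.40 ± 0.10, adjusted p = 0.0893). These values use the same aged knockout arrays as the aging comparison in knockout aorta and are not separate support for it. With each array centred on its median Mmp16 and Adamts5 passed (limma, adjusted p = 0.0386 and 0.0407). They also passed without aged knockout array 3 (adjusted p = 0.00609 and 0.0154), a fit that called 1442 of all genes. Without both aged knockout arrays 1 and 2 they were at -0.43 and -0.40, against a single aged knockout array. Mmp17 (-0.50 ± 0.17), Adam9 (-0.27 ± 0.08) and Adamtsl4 (-0.24 ± 0.07) did not pass (limma, adjusted p = 0.158, 0.111 and 0.103). For Adam11, without protease activity, the value was -0.40 ± 0.13 (limma, adjusted p = 0.141). Smooth muscle markers had a median of -0.40 in the same comparison, 7 of 8 below 0 and 7 at a limma unadjusted p under 0.05. Fibroblast markers had -0.33, 8 of 8 below 0, while B lymphocyte and plasma cell markers had 2.21, 8 of 8 above 0. None of these markers was called, and their part in the members' values was not tested.

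Over both ages the mean knockout difference passed in 0 members by limma (0% of all genes), with 11 at an unadjusted p under 0.05 (10.9% of all genes). Mmp16 (-0.33 ± 0.07, adjusted p = 0.325) and Adamts5 (-0.34 ± 0.07, adjusted p = 0.325) had the smallest p. The difference of aging between genotypes also passed in 0 members by limma (0% of all genes), with 9 at an unadjusted p under 0.05 (8.12% of all genes). The lowest p values there belonged to Mmp16 (-0.48 ± 0.13), Adam22 (-0.35 ± 0.10), Mmp23 (-0.50 ± 0.15) and Timp3 (-0.42 ± 0.14), each with a limma adjusted p of 0.609. A call in 1 genotype and not in the other therefore does not stand for a difference between genotypes, which was tested and passed in no member.

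Other genes of the pathway were counted in 4 lists. With age, 0.236% of all genes were called in MR-intact aorta (0.179% higher, 0.0565% lower). In knockout aorta 0.735% were (0.316% higher, 0.419% lower). Of 32 activating and other matrix proteases, none was called with age in MR-intact aorta and 2 fell in knockout aorta, Bmp1, a procollagen C-proteinase (-0.39 ± 0.07, limma adjusted p = 0.0373), and Htra3, a serine protease (-0.56 ± 0.10, adjusted p = 0.0273). Of 30 other inhibitors, activators and clearance receptors, none was called in MR-intact aorta; in knockout aorta 3 fell and 1 rose. Those that fell were Pcolce and Pcolce2, enhancers of Bmp1 (-0.50 ± 0.08, limma adjusted p = 0.0164, and -0.60 ± 0.10, adjusted p = 0.0189), and Serpinh1, the collagen chaperone (-0.45 ± 0.07, adjusted p = 0.0164). The one that rose was Slpi, a secreted inhibitor of neutrophil elastase (2.83-fold, limma adjusted p = 0.0398). Of 30 matrix substrates 3 fell in MR-intact and 6 in knockout aorta, the fibrillar collagens Col1a1, Col1a2 and Col3a1 in both, and Col4a2, Ltbp3 and Fbln2 in knockout aorta; medians were -0.16 and -0.35. Of 32 membrane substrates of ADAM sheddases none was called in MR-intact and 1, Ephb4, fell in knockout aorta (-0.44 ± 0.08, limma adjusted p = 0.0332). No gene of the 4 lists was called in a knockout comparison or in the difference of aging between genotypes (at most 0.0565% of all genes). Without both aged knockout arrays 1 and 2, the counts called with age in knockout aorta were 1, 0, 3 and 0 in the order of the lists, with 1 aged knockout array left and the spread taken from the other groups. The same fibroblast marker values as above go with these counts, and their part was not tested.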

How the data were processed

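Per the labels' protocols, aortic RNA was extracted with QIAzol, purified on columns, labelled with biotin and hybridised to 13 arrays. Values deposited by the authors are log2 expression, 1 for each gene on each array, at full precision and again rounded to 2 decimals. The submitters' processing notes name RMA, affy and limma without roles or versions, with array platform and genome build not given in the sources used here. RMA sets arrays to a common distribution, which can mask a global shift.

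All 21225 genes entered 1 fit without filter or further scaling, in R 4.3.3 with limma 3.58.1 (lmFit, contrasts.fit, eBayes), with a coefficient per group (9 residual and 3.41 prior degrees of freedom). Tests were two-sided, and p-values were adjusted by Benjamini-Hochberg over every gene tested in a comparison, with calls under 0.05. Errors after ± on differences are SEs. Groups came from the genotype and age labels, and replicate numbers only name arrays. No batch is named; sample titles carry the letter A in aged and B in young mice without exception, and what it marks cannot be told apart from age. Members and gene lists were chosen with earlier results of these data known. Some genes that match the symbol rule are not reported here. Named with values were all called members, the 10 with the smallest p in each aging and single-age knockout comparison, the 3 brightest of each class, and 15 best known in arteries; Adam12, Mmp7 and Mmp10 are exceptions. The code was tested on simulated data. Alternatives were the rounded values, median centring, a second quantile normalization, array weights, an intensity trend with robust prior, no dim genes (lowest 33.3%), only the groups compared, and leaving out each array.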

Additional observations from a re-analysis of the deposited data

Results flagged for a closer look

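Both values below come from aged MR-intact array 2, in the 1 group of 4 arrays; 39 members were examined there, and chance marks about 1 in 20 groups this way. Mmp16 measured 5.96 on that array and 6.14 to 6.16 on the other 3, a gap of 0.894 of the group's range. Timp2 measured 10.63 there and 10.78 to 10.79 on the other 3, a gap of 0.88 of the range. No cause was tested.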

How the results depend on the processing

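Leaving out 1 array at a time gave 0 to 2 members called with age in MR-intact aorta (14 to 104 of all genes, against 50). In knockout aorta it gave 0 to 7 (14 to 885 of all genes, against 156). The 7 were reached without aged knockout array 1 or 3, with 288 and 885 of all genes. For the knockout in aged aorta the count was 0 to 8 (8 without aged knockout array 3, with 1442 of all genes against 12). It was 0 for the knockout in young aorta and 0 for the difference of aging between genotypes. For the mean knockout difference it was 0 to 3 (3 without aged knockout array 3, with 292 of all genes against 0). For the knockout in aged aorta Mmp16 also passed without aged knockout array 1, aged MR-intact array 2 or young knockout array 3, Adamts5 without the first or second of these, and Timp3 without the second. No member was called with age in MR-intact aorta without young MR-intact array 2, and none in knockout aorta without young knockout array 2. The median member differences ranged from -0.05 to -0.00 and from -0.11 to -0.05 with age in MR-intact and knockout aorta, from -0.00 to 0.03 and from -0.05 to 0.02 for the knockout in young and aged aorta, from -0.02 to 0.01 for the mean, and from -0.08 to -0.02 for the difference of aging. The Nr3c2 difference ranged from -0.62 to -0.50, and its limma adjusted p was 0.0147 without aged knockout array 3.

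With array weights 9 members were called with age in MR-intact aorta (2 higher, 7 lower), adding Mmp2, Mmp15, Adamts9, Adamts12, Adamts15, Adamtsl3 and Adamtsl4, and 3 in knockout aorta. With only the groups compared in the fit the counts were 1 and 0, with fewer arrays to estimate the spread. Without both aged knockout arrays 1 and 2, chosen after seeing the data, 1 was called in knockout aorta (51 of all genes); this leaves 1 aged knockout array, assumed to vary like the other groups, and is no replicate check. For the knockout in aged aorta, median centring called 2 members, and the intensity trend and the second quantile normalization called 1 each (115, 23 and 24 of all genes). Median centring changed the aging calls in knockout aorta from 1 higher and 5 lower to 0 and 7 among members, and from 67 and 89 to 69 and 143 among all genes. In aged aorta it changed the knockout calls among all genes from 8 higher and 4 lower to 51 and 64. In the 4 pathway lists, array weights called 3 proteases, 2 inhibitors, 9 matrix substrates and 3 membrane substrates with age in MR-intact aorta; in knockout aorta all alternatives together gave 0 to 5, 0 to 5, 1 to 10 and 0 to 4. Over all genes, array weights called 489 against 50 with age in MR-intact aorta, and in knockout aorta calls were 1 with only the groups compared and 271 after the second quantile normalization, against 156. The causes were not tested. No scaling moved the median of all genes by over 0.1, and no called member changed sign. No paired analysis was possible because the labels give no replicate numbers shared between groups.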
